A study of Mus musculus with 8 samples.

Results

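The 7 genes described here are the major histocompatibility complex (MHC) class II genes H2-Aa, H2-Ab1, H2-Eb1, H2-DMa and H2-DMb1, the invariant chain gene Cd74, and Ciita. They were chosen by symbol among the 32285 genes of the count matrices, and each symbol had 1 row. The data are single-cell RNA counts from mouse tongue epithelia, 15 days after transgene induction, in 4 groups of 2 libraries. All mice carried Krt14-CreERT and LSL-rtTA and, per the study's methods, a reporter, so that tamoxifen given into the tongue and doxycycline switched on transgenes in basal epithelial cells, where the Krt14 promoter is active. The normal controls (N) carried no further transgene, E mice carried tetON_E6-E7 (the oncogenes of human papillomavirus), Y mice carried tetON_YAP1S127A (an active form of the transcriptional co-activator YAP), and EY mice carried both. Immune cells carried the transgenes without the Krt14-driven switch, so a difference in macrophages or dendritic cells was measured in cells that the model was not built to alter directly. Libraries are numbered within a group (N1, N2 and so on).

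MHC class II molecules are pairs of an alpha and a beta chain that carry peptides of ingested proteins to the cell surface, where helper T cells read them. H2-Aa and H2-Ab1 encode the alpha and beta chain of I-A, and H2-Eb1 encodes the beta chain of I-E. Cd74, the invariant chain, blocks the groove and guides the molecule to endosomes, and the H2-DM pair (H2-DMa with H2-DMb1) then removes its last fragment and lets peptides bind. Ciita encodes the class II transactivator, which is recruited to a shared promoter module of an X box and a Y box and switches the set on. In skin and oral mucosa the set is known from Langerhans cells, dendritic cells and macrophages, and interferon-gamma can induce it in epithelial cells.

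Of the members, 5 lie within the MHC on chromosome 17 (GRCm38, GENCODE vM21). H2-DMa (ENSMUSG00000037649) spans chr17:34119541-34139101 on the plus strand, and H2-DMb1 (ENSMUSG00000079547) follows at chr17:34153072-34160230, plus strand. H2-Ab1 (ENSMUSG00000073421) lies at chr17:34257689-34269419 on the plus strand, H2-Aa (ENSMUSG00000036594) at chr17:34282744-34287823 on the minus strand, and H2-Eb1 (ENSMUSG00000060586) at chr17:34305867-34316674 on the plus strand. Ciita (ENSMUSG00000022504) lies at chr16:10480059-10528418, plus strand, and Cd74 is ENSMUSG00000024610, on another chromosome. The span of H2-DMa overlaps CR974462.3 on the same strand, and H2-DMb1 has a close paralog, H2-DMb2, beside it, so counts of these 2 members are less certain than the others.

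The promoter module is shown for 3 members in which both of its boxes were found, because it is what links these genes to Ciita. Promoters were RefSeq windows of 250 bases before to 50 bases after each start (GRCm38.p6). Those of 4 members are described here (H2-Aa, H2-Eb1, H2-DMa and H2-DMb1), and the other members are not covered. Both strands were searched for CTNGNAACT, a core of the X box, and for TGATTGG, the Y box, letters that were chosen after these promoters had been read. The X box core was in 4.10% of 32851 promoters and the Y box in 7.82%, while an X box core followed by a Y box within 40 bases occurred in 5 promoters, 3 of them those of H2-DMb1, H2-Aa and H2-Eb1. The windows of H2-DMa held neither. The 3 stretches lie at chr17:34153079-34153149 (H2-DMb1, plus strand), chr17:34287852-34287922 (H2-Aa, minus strand) and chr17:34305758-34305827 (H2-Eb1, plus strand), upstream of the start in each case, with the boxes in capitals, X before Y. The spacing between the boxes was 25 bases in H2-DMb1 and H2-Aa and 24 in H2-Eb1. A match describes letters in the window and not a bound site.
H2-DMb1: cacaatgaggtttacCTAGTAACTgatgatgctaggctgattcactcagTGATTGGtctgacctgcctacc
H2-Aa: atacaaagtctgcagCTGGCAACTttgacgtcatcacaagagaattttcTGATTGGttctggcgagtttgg
H2-Eb1: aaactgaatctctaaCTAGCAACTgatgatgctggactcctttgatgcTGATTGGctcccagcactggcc

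Of 42550 deposited cells, 25199 passed the limits on genes, UMIs (unique molecular identifiers, 1 per captured RNA molecule) and mitochondrial share, with 1520 to 5407 cells and 46483469 to 102427359 deposited UMIs per library. Immune cells were clustered without any class II gene and named by other markers. Macrophage-like cells led with C1qa, C1qb and Apoe, monocyte-like cells with Chil3, Saa3 and Vcan, Langerhans-like cells with Mfge8, Epcam and Ltc4s, and dendritic-like cells with Ccr7, Ccl22, Fscn1 and Xcr1, while Cd207 was close in the last pair (560 and 477 CPM, the UMI counts of a gene per 1000000 UMIs of the class). Epithelial cells were those with keratin UMIs at 0.5% or more and no Ptprc UMI, of which 97.9% fell into epithelial clusters. Yap1, whose mouse row can also take reads of the transgene, was at 32.8 to 47.8 CPM in epithelial cells of N and E libraries and at 166 to 452 CPM in those of Y and EY, as the labels say. Any pair of libraries shared at most 0.330% of the smaller library's barcodes.

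Langerhans-like, dendritic-like and macrophage-like cells held the members at similar, high levels, and every other class was far below. The 6 members other than Ciita summed to a median of 57023 CPM in Langerhans-like cells (48529 to 76983 over 5 libraries with at least 20 cells), 45502 CPM in dendritic-like cells (38254 to 53057, 4 libraries) and 40048 CPM in macrophage-like cells (25947 to 53216, 8 libraries). These ranges overlap, so the order of the 3 classes is not beyond the spread between libraries. The next class was plasmacytoid dendritic-like cells, at 5703 CPM (3483 to 7094, 3 libraries), and then monocyte-like cells, at 1441 CPM (1163 to 2514, 3 libraries). Natural-killer-like cells (470 CPM, 232 to 1155, 6 libraries), neutrophil-like cells (306 CPM, 157 to 723, 5 libraries) and T-cell-like cells (256 CPM, 149 to 545, 8 libraries) overlapped one another, and epithelial cells came last at 81.3 CPM (66.1 to 155, 8 libraries), a range that overlaps a little with that of T-cell-like cells. Ciita had the same order on its own, with means of 186 CPM in Langerhans-like, 133 in dendritic-like, 89.6 in macrophage-like, 3.47 in monocyte-like, 1.33 in T-cell-like and 0.142 CPM in epithelial cells. Macrophage-like cells held 50.4% to 88.4% of all class II UMIs of a library, being more numerous (2826 cells) than Langerhans-like (258) and dendritic-like cells (183). Classes were made from the same cells, so these differences are a description.

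**Figure D1:**
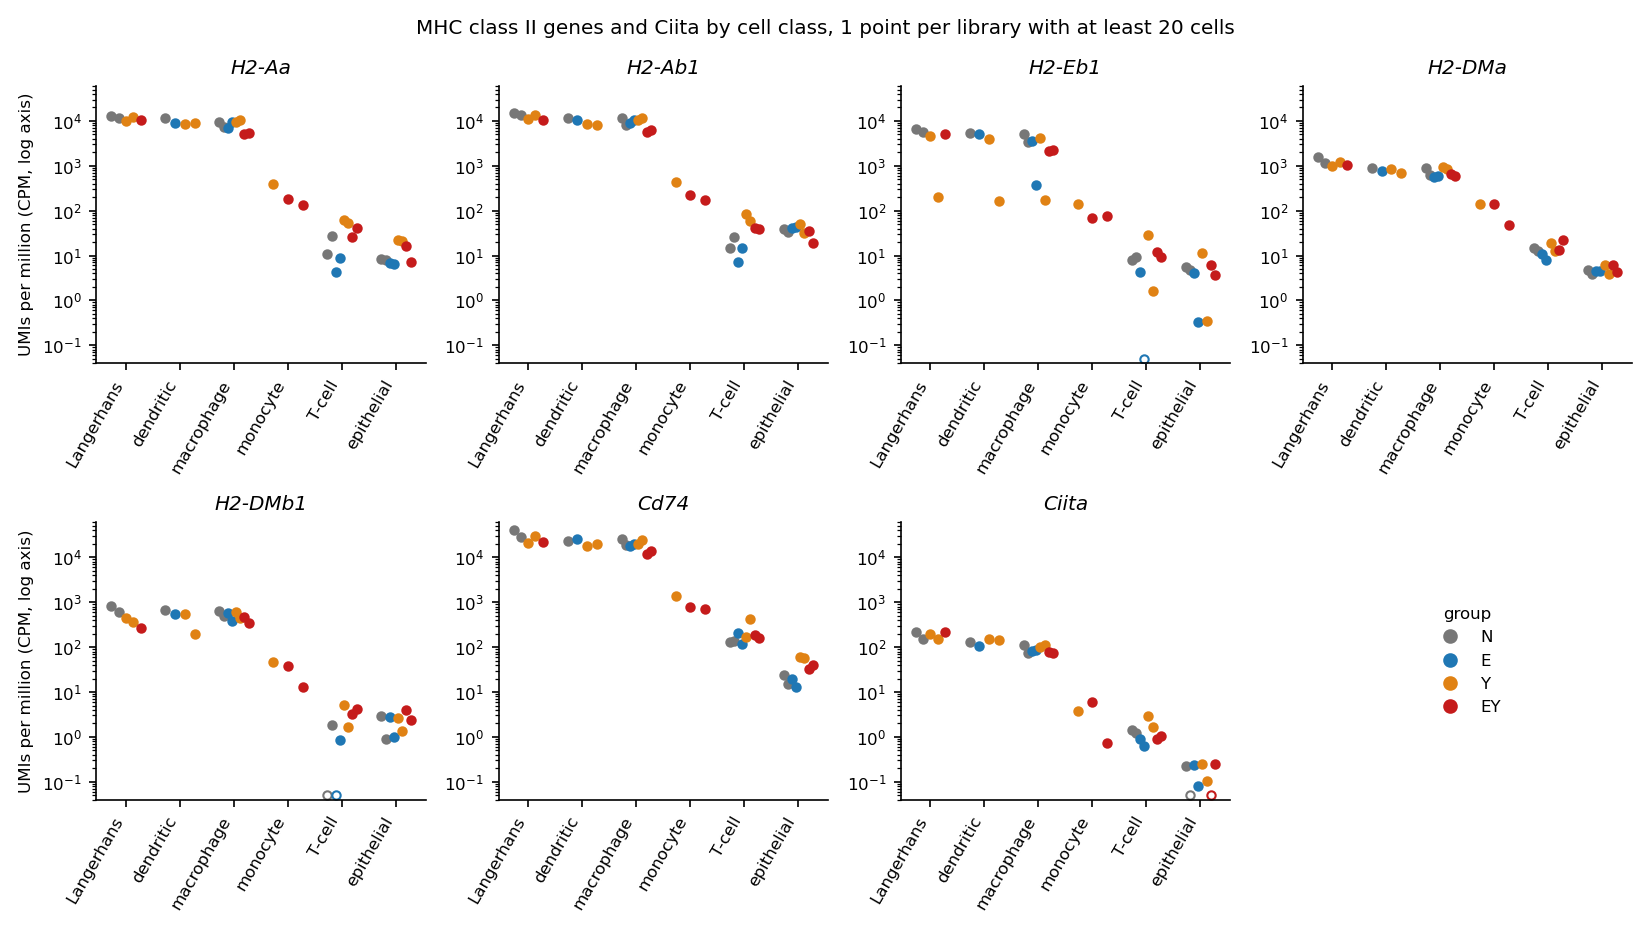
Level of each member (CPM, log axis) in 6 cell classes, 1 point per library with at least 20 cells of the class, coloured by group; open points mark 0. All members fall from Langerhans-like, dendritic-like and macrophage-like cells to monocyte-like, T-cell-like and epithelial cells, and H2-Eb1 alone has points far below the rest of its class, in E2 and Y2.

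The proportion of H2-Ab1 to H2-Aa was close among libraries, and that of H2-Eb1 was not. H2-Ab1 stood at 109 to 130 UMIs per 100 H2-Aa UMIs in macrophage-like cells of the 8 libraries. H2-Eb1, the I-E beta chain, stood at 42.6 to 57.7 per 100 H2-Aa UMIs over the antigen-presenting classes of N, EY, E1 and Y1, but at 1.69 to 3.97 in those of E2 and Y2. Summed over the antigen-presenting classes, H2-Eb1 was at 5452 and 4214 CPM in N, 3851 and 363 in E, 4099 and 179 in Y, and 2438 and 2733 in EY. The 2 libraries of E therefore differed 10.6-fold and those of Y 22.9-fold. E2 and Y2 were low in macrophage-like, Langerhans-like and dendritic-like cells alike, and also in T-cell-like (0 and 1.64 CPM) and epithelial cells (0.330 and 0.356 CPM). Neutrophil-like cells of E2 did not show this, with 7 H2-Eb1 UMIs beside 1 H2-Aa UMI in 71 cells, a level of 23.6 CPM that lay above EY (15.2 and 16.5 CPM) and below N2 and Y1 (76.7 and 54.1 CPM). H2-Eb1 was the exception among its neighbours. Of 12 genes at 20 CPM or more within 200 kb, the other 11 had ratios of 0.526 to 1.70 between the same pairs of libraries, including H2-Aa and H2-Ab1. Over 3387 genes at 50 CPM or more, 7 differed more than 4-fold in the same sense in both pairs (Cd2, Areg, 1600014C10Rik, Mgl2, Alox15, H2-M2 and H2-Eb1), a list made after the values were seen. Every result on H2-Eb1 below carries this split within E and within Y, and its standard errors are accordingly wide.

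**Figure D2:**
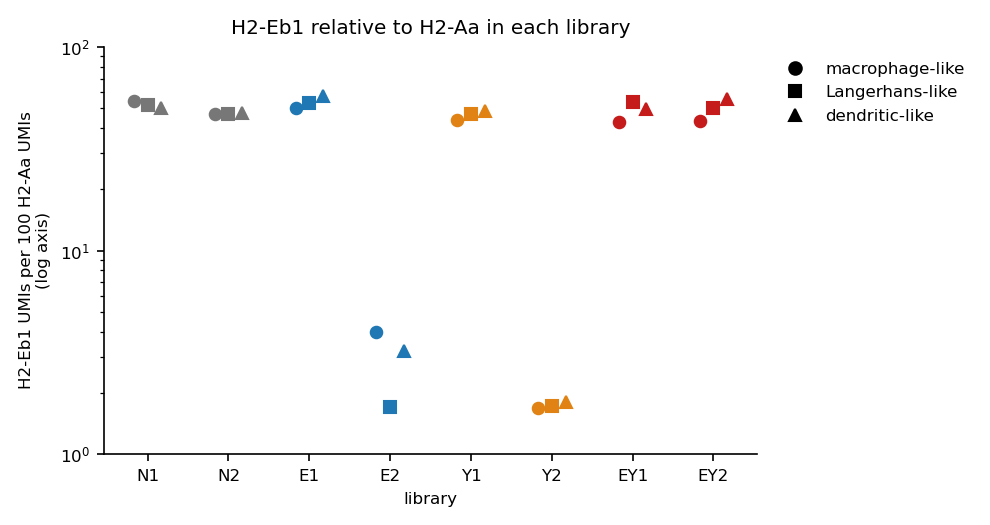
H2-Eb1 UMIs per 100 H2-Aa UMIs (log axis) in macrophage-like, Langerhans-like and dendritic-like cells of each library, coloured by group. The other 6 libraries lie between 42.6 and 57.7, and E2 and Y2 between 1.69 and 3.97 in all 3 classes.

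In macrophage-like cells the I-A chains and the invariant chain were lowest in EY, without passing the test. H2-Aa was at 9377 and 7307 CPM in N, 6971 and 9499 in E, 9242 and 10443 in Y, and 4989 and 5316 in EY. H2-Ab1 was at 11457 and 8149 CPM in N, 9060 and 10397 in E, 10661 and 11683 in Y, and 5608 and 6383 in EY. Cd74 was at 25764 and 18645 CPM in N, 18085 and 20105 in E, 19957 and 24573 in Y, and 12095 and 14103 in EY. For each of these genes both EY libraries were below the other 6, which overlapped one another. That held for 3 of the 7 members and for 16.7% of all genes tested in these cells, so it is a common pattern there. Against N, the log2 fold change of EY was -0.62 for Cd74 (SE 0.21, edgeR adjusted p = 0.152), -0.55 for H2-Aa (SE 0.21, edgeR adjusted p = 0.196) and -0.56 for H2-Ab1 (SE 0.21, edgeR adjusted p = 0.180).

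H2-DMa, H2-DMb1 and Ciita had smaller estimates for EY against N. H2-DMa was at 893 and 616 CPM in N, 557 and 592 in E, 954 and 864 in Y, and 668 and 605 in EY, and H2-DMb1 at 654 and 488, 590 and 374, 621 and 442, and 462 and 340 CPM in the same order. Both sets overlap between groups. Ciita, the transactivator, was at 114 and 72.6 CPM in N, 80.5 and 85.7 in E, 102 and 111 in Y, and 77.6 and 74.1 in EY, so its EY values fell among those of N, and its log2 fold change of EY against N was -0.12 (SE 0.24, edgeR adjusted p = 0.852). For H2-Eb1 the estimate was larger and its error wider, at -0.80 (SE 1.17, edgeR adjusted p = 0.777). Without E2 and Y2 it was the same size with a smaller error (SE 0.24, edgeR adjusted p = 0.0896).

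**Figure D3:**
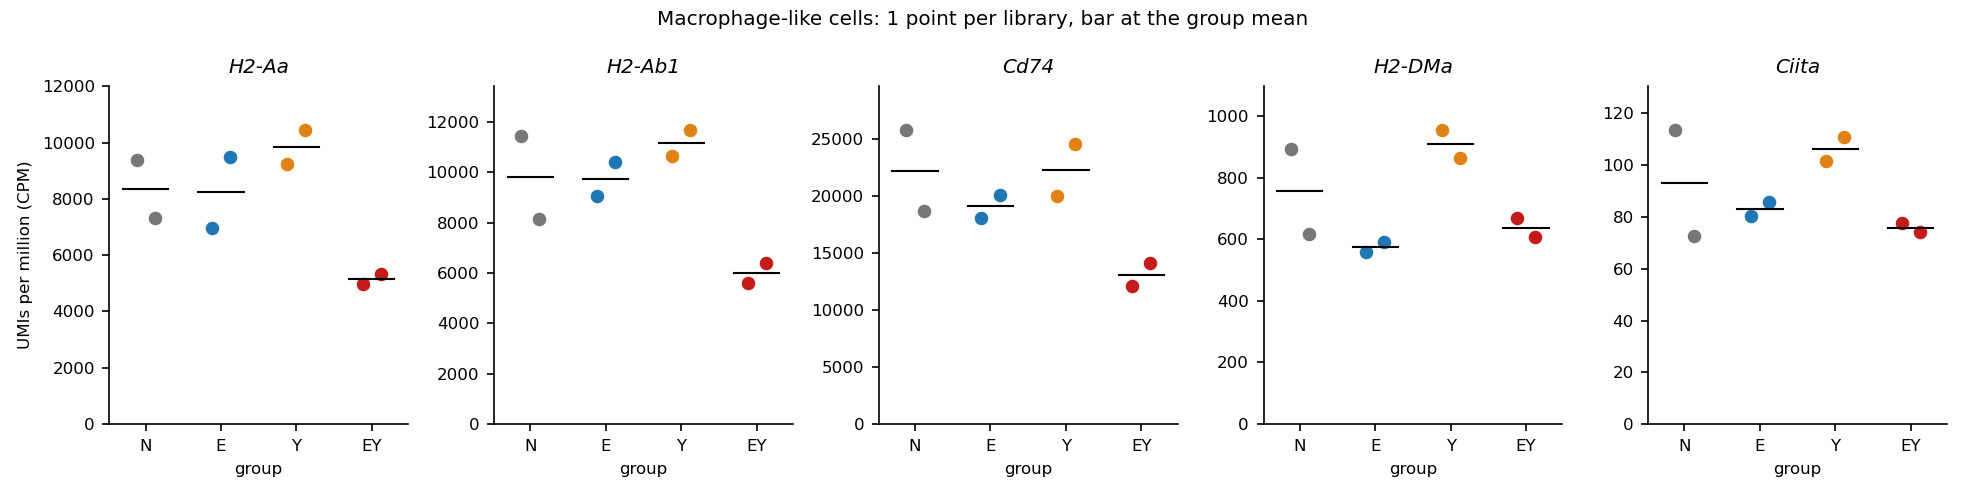
Levels (CPM) of 5 members in macrophage-like cells by group, 1 point per library, with a bar at the group mean. Both EY points of H2-Aa, H2-Ab1 and Cd74 lie below all other points, while those of H2-DMa and Ciita lie among them.

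No member was called in macrophage-like cells by edgeR in any of the 4 contrasts, nor by DESeq2. For EY against N, 3 of 7 members had an unadjusted p under 0.05, the median log2 fold change was -0.55 over the members and -0.01 over all 9817 genes, and 1.59% of genes were called. For the E6-E7 effect (E and EY against N and Y), 4 of 7 members had an unadjusted p under 0.05, and all 7 estimates were below 0, with a median of -0.41. No gene at all was called in that contrast (0.00% of 9817, with 1024 at an unadjusted p under 0.05). For the YAP effect (Y and EY against N and E), the median over the members was -0.11 and no member had an unadjusted p under 0.05, where 2.63% of genes were called. The interaction, which asks whether the effect of both transgenes differs from the sum of the single ones, was -0.74 for H2-Aa (SE 0.29, edgeR adjusted p = 0.658) and -0.71 for H2-Ab1 (SE 0.29, edgeR adjusted p = 0.699). Leaving out N1 moved the log2 fold changes of EY against N from -0.62 to -0.35 for Cd74, from -0.56 to -0.29 for H2-Ab1, from -0.55 to -0.35 for H2-Aa and from -0.80 to -0.48 for H2-Eb1.

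Markers of other cells moved with the low EY values. The summed monocyte markers (10 genes, none at 0 in any library) were at 13105 and 18624 CPM in the macrophage-like cells of EY and at 2577 to 5726 CPM in those of the other 6 libraries, and the 8 neutrophil markers were at 2794 and 2728 CPM in EY and at 74.2 to 753 CPM elsewhere. Macrophage markers were at 6090 and 13135 CPM in EY and 9024 to 14984 CPM elsewhere. Their part in the result was not tested. Per cell, thinned to 2000 UMIs, the median of class II UMIs was 39 and 52 in EY and 70.5 to 101 in the other libraries. Cells with under 20 such UMIs made up 32.3% and 25.1% in EY, 32.2% in N2 and 6.88% to 14.6% in the remaining 5.

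Splitting macrophage-like and monocyte-like cells into 13 finer clusters, again without class II genes, spread the set over a wide range. The summed level was highest in a cluster led by Ms4a7, Cd72 and the C1q genes (60697 CPM), which came from N, E and Y libraries and had 3 of its 354 cells in EY. Next stood a cluster of 143 cells led by Ccl17 and Mgl2 (57243 CPM), 130 of them from Y2, and a cluster led by Ccl17 and Ccl24 (55553 CPM), 405 of whose 513 cells came from Y1. Clusters led by Lyz1 and Lpl (21713 CPM) and by Spp1 and Gpnmb (23512 CPM) held less. A cluster led by Saa3 and Slpi, with 345 of 357 cells from EY2, was at 12635 CPM, and one led by Chil3, Prtn3 and Vcan, with 294 of 342 cells from EY1, at 622 CPM. Where a cluster came largely from 1 library, cluster and library cannot be told apart. In 6 clusters EY1 and Y1 both had at least 20 cells, and EY1 was below Y1 in 6 of 6. All of these comparisons rest on the same pair of libraries, so the count is not replication. In the cluster led by interferon-induced genes (Ifit2, Rsad2) EY1 was at 16701 CPM, against 42845 in Y1 and 38641 and 37800 in E. In the Spp1 and Gpnmb cluster it was at 10523 CPM against 24989 and 26476 in Y, and in a cluster led by Ccl24 and Inhba at 16987 CPM against 39930 in Y1. In the Ccl17 and Ccl24 cluster both EY libraries, at 47189 and 54978 CPM, lay within the range of Y (57247 and 46964), so the difference was small there.

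Monocyte-like cells reached 20 cells in 3 libraries, Y1 (117 cells), EY1 (405) and EY2 (261), which was too few for a test. Their 6 summed members were at 2514, 1441 and 1163 CPM, and Cd74 was at 1377, 780 and 720 CPM in the same order. Both EY libraries were below the single Y library.

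In Langerhans-like cells 1 member passed the test. H2-DMb1, the beta chain of the peptide-exchange factor, was at 816 and 622 CPM in N, 881 and 642 in E, 443 and 361 in Y, and 379 and 270 in EY, with 15 to 56 cells per library. All 4 libraries with the YAP transgene were below the 4 without it. The share of all genes with this pattern was not counted in Langerhans-like cells alone. With dendritic-like cells added it was 5.38%. The YAP effect was a log2 fold change of -0.91 (SE 0.19, edgeR adjusted p = 0.0117), 1 of 7 members beside 6.32% of all 4540 genes called in the contrast (2.78% lower). The value did not rest on the libraries that were low in H2-Eb1, since without E2 and Y2 it was -0.94 (edgeR adjusted p = 0.0277), and it stayed past the threshold with each library left out. The call was lost with no upper limit on genes or UMIs per cell (edgeR adjusted p = 0.119) and with finer clusters (edgeR adjusted p = 0.0982). Reads that fit both H2-DMb1 and its paralog H2-DMb2 could move between them. Over the antigen-presenting classes summed, H2-DMb2 was at 146 and 165 CPM in N, 125 and 238 in E, 142 and 251 in Y, and 102 and 100 in EY.

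The other members of Langerhans-like cells were not called for the YAP effect. Cd74 was at 40138 and 28629 CPM in N, 32199 and 35099 in E, 21206 and 29879 in Y, and 23971 and 21578 in EY, a log2 fold change of -0.39 (SE 0.14, edgeR adjusted p = 0.136), with Y2 above N2. All 7 estimates were below 0, with a median of -0.26 beside 0.01 over all genes, and that of Ciita was -0.01 (SE 0.20). For the E6-E7 effect the estimates ran both ways, 4 above 0 and 3 below, none with an unadjusted p under 0.05, where edgeR called 0 genes (288 at an unadjusted p under 0.05) and DESeq2 no member. For EY against N, H2-DMb1 was -1.02 (SE 0.28, edgeR adjusted p = 0.0718), where 2.67% of genes were called.

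With Langerhans-like and dendritic-like cells summed, each library had 24 to 102 cells. The 6 summed members were at 69940 and 57577 CPM in N, 57721 and 60430 in E, 45357 and 48850 in Y, and 45518 and 45952 in EY. H2-Ab1 was at 14170 and 12682 CPM in N, 12956 and 13047 in E, 10094 and 10982 in Y, and 9666 and 9936 in EY. The 4 YAP libraries were thus below the 4 others for the sum and for H2-Ab1, and the same was true of H2-DMb1 and Cd74. This was 3 of 7 members, where 5.38% of all genes showed it. By edgeR none of the 3 was called, with log2 fold changes of -0.81 for H2-DMb1 (SE 0.21, edgeR adjusted p = 0.0581), -0.42 for Cd74 (SE 0.12, edgeR adjusted p = 0.0871) and -0.32 for H2-Ab1 (SE 0.10, edgeR adjusted p = 0.129), where 3.35% of genes were called. DESeq2 called H2-DMb1 (DESeq2 adjusted p = 0.0194). H2-Aa had a value of -0.23 (SE 0.12, edgeR adjusted p = 0.406) and Ciita of 0.12 (SE 0.20, edgeR adjusted p = 0.846), so the transactivator's estimate had the opposite sign. For the E6-E7 effect 0.0705% of genes were called, and for EY against N 2.1%, neither with a member by edgeR or DESeq2 (0 and 3 of 7 members at an unadjusted p under 0.05).

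**Figure D4:**
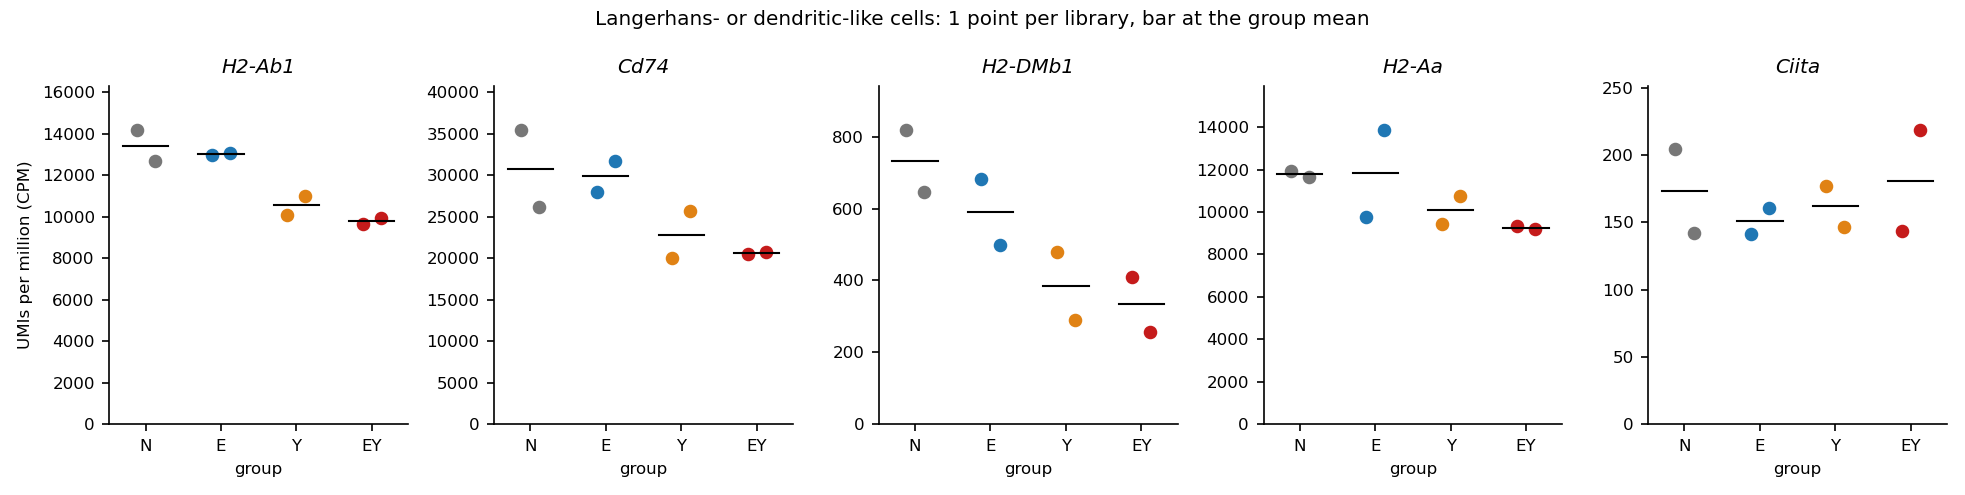
Levels (CPM) of 5 members in Langerhans-like and dendritic-like cells summed, by group, 1 point per library, with a bar at the group mean. For H2-Ab1, Cd74 and H2-DMb1 all Y and EY points lie below all N and E points, and for Ciita the groups overlap.

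Neutrophil markers also moved here. In these summed cells the 8 neutrophil markers were at 780 and 475 CPM in EY, 116 and 48.1 in Y, and 8.42 to 35.1 CPM in N and E, and dendritic markers were at 2352 and 1558 CPM in EY, 879 and 2335 in Y, and 543 to 1815 CPM in N and E. The Langerhans marker Cd207 had 595 and 1222 UMIs in N (of 475090 and 1880026) and 334 and 405 in E (of 432774 and 498199). It had 239 and 353 in Y (of 1274883 and 1080918) and 99 and 43 in EY (of 431920 and 210544). Its share was thus lower in all 4 YAP libraries, while that of Epcam did not separate them. The part of these markers, and of the make-up of the class, was not tested. In dendritic-like cells alone (12 to 46 cells, 7 libraries, E2 with 9 cells left out of the fit), H2-DMb1 had a YAP effect of -0.89 (SE 0.33, edgeR adjusted p = 0.386) and Cd74 one of -0.42 (SE 0.12, edgeR adjusted p = 0.242), in the same direction as in Langerhans-like cells, with 0.112% of genes called. No member was called for the E6-E7 effect (0.0224% of genes) or for EY against N (1.19%) by edgeR or DESeq2, with 0 and 4 of 7 members at an unadjusted p under 0.05.

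In epithelial cells, members were far below the antigen-presenting classes, and the Cd74 and H2-Aa counts in them rose with YAP. Cd74 was at 24.4 and 15.2 CPM in N, 19.1 and 13.1 in E, 60.6 and 57.7 in Y, and 33.4 and 39.3 in EY, so the 4 YAP libraries stood above the 4 others, which held for 1 of 6 members and for 8.12% of genes. That separation was lost without the 1% of cells with the most class II UMIs in each library. Cd74 was then at 7.19 and 13.4 CPM in N, 8.36 and 7.53 in E, 42.5 and 13.2 in Y, and 25.2 and 24.8 in EY, with Y2 below N2. H2-Aa was at 8.37 and 8.12 CPM in N, 6.65 and 6.53 in E, 22.4 and 20.7 in Y, and 16.7 and 7.27 in EY, where EY2 lay among the libraries without YAP. Without the same cells, H2-Aa in Y2 (6.17 CPM) also lay below N2 (7.06 CPM). H2-Ab1, its partner chain, was at 38.5 and 33.2 CPM in N, 41.1 and 43.0 in E, 51.5 and 31.2 in Y, and 35.4 and 19.2 in EY, with no separation of groups. The YAP effect was 1.42 for Cd74 (SE 0.18, edgeR adjusted p = 0.00522), 1.12 for H2-Aa (SE 0.25, edgeR adjusted p = 0.0319) and -0.18 for H2-Ab1 (SE 0.25, edgeR adjusted p = 0.646). These were 2 of 6 members tested, beside 8.98% of 13555 genes called (5.26% higher). For the E6-E7 effect, 0.406% of genes were called and no member by edgeR or DESeq2, with 2 of 6 members at an unadjusted p under 0.05. Ciita had 0 to 0.249 CPM and was below the count filter. H2-DMa (3.81 to 6.23 CPM) and H2-DMb1 (0.915 to 4.07 CPM) were not called.

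The call of H2-Aa was the less firm one. It was lost in 6 of the 8 fits that left out 1 library (all but those without Y1 or EY2) and when cells with a UMI of any of 10 immune markers were dropped (log2 fold change 0.99, edgeR adjusted p = 0.114), while Cd74 kept a value of 1.32 there (edgeR adjusted p = 0.0395) and 1.34 without E2 and Y2 (edgeR adjusted p = 0.0612). For EY against N, Cd74 was 0.90 (SE 0.26, edgeR adjusted p = 0.0491), where 18.8% of genes were called, and each library left out other than EY1 ended that call.

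The same epithelial cells held signs of immune RNA. The share of epithelial cells with a UMI of an immune marker was 16.9% and 38.6% in N, 21.5% and 33.8% in E, 59.7% and 23.5% in Y, and 68.8% and 49.2% in EY, and the 1% of cells with the most class II UMIs held 8.30% to 67.4% of those UMIs in a library. The 8 neutrophil markers were at 2248 and 635 CPM in EY epithelial cells and 5.04 to 129 CPM in the others, whereas the Langerhans marker Cd207 was at 0 in Y1, EY1 and EY2. The share of cells with Cd74 at 2000 UMIs per cell was 2.21% to 12.4% in epithelial cells (median depth 12575 to 23570 UMIs, unthinned share 10.2% to 51.6%) and 14.2% to 30.7% in T-cell-like cells (2922 to 7873 UMIs, unthinned 19.9% to 49.1%), and it was lower in the epithelial cells of 8 of 8 libraries. No expression of Cd74 by epithelial cells is read from these shares. Cd74 UMIs per H2-Aa UMI numbered 2.81 to 47.6 in T-cell-like and 2.12 to 2.75 in macrophage-like cells, so the 2 classes did not hold these genes in 1 proportion. The highest of these ratios (E1) rests on 5 H2-Aa UMIs. The lowest in T-cell-like cells (Y1, 787 H2-Aa UMIs) was close to the macrophage-like range. The part of immune RNA in the epithelial Cd74 and H2-Aa values was not tested. In T-cell-like cells the YAP effect was 1.82 for H2-Aa (SE 0.32, edgeR adjusted p = 0.0744), 1.81 for H2-Ab1 (SE 0.25, edgeR adjusted p = 0.0581) and 0.71 for Cd74 (SE 0.30, edgeR adjusted p = 0.404), 0 of 5 members tested, 4 of them at an unadjusted p under 0.05, beside 0.0508% of genes called. DESeq2 called 2 of them. H2-Ab1 was at 7.04 to 26.4 CPM in the T-cell-like cells of N and E and at 39.8 to 83.6 CPM in those of Y and EY, the 1 of 5 members without overlap there, where 2.23% of genes showed it.

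H2-Ab1 stood higher beside H2-Aa in epithelial cells than in the classes compared here. That was not particular to H2-Ab1, since H2-DMa was also higher beside H2-Aa there in every library. In N1, H2-DMa and H2-Aa had 235 and 417 UMIs in epithelial cells, against 771 and 8093 in macrophage-like cells. In Y2 they had 75 and 407, against 3648 and 44105. The proportion of H2-DMa was not tested. There were 4.60 and 4.08 H2-Ab1 UMIs per H2-Aa UMI in N, 6.17 and 6.58 in E, 2.29 and 1.51 in Y, and 2.12 and 2.64 in EY. The same ratio was 1.09 to 1.30 in macrophage-like, 0.941 to 1.32 in Langerhans-like and dendritic-like, and 0.950 to 1.69 in T-cell-like cells. It was higher in epithelial than in macrophage-like cells of 8 of 8 libraries, by 1.51 ± 0.75 on the log2 scale (SD, n = 8, exact two-sided sign-flip test p = 0.00781, the smallest that 256 patterns allow, and 0.00781 adjusted over 12 such tests). With the top 1% of cells and cells with immune markers removed, the ratio was 4.50 to 10.96 in N and E and 1.73 to 3.83 in Y and EY. The lowest of these (EY1) rests on 11 H2-Aa UMIs in 53 cells. That of N2, the lowest without YAP, rests on 38 H2-Aa UMIs, and that of E2 on 31, so counting error is large. The 4 YAP libraries were lower than the 4 others in each of these selections (exact two-sided permutation test p = 0.0286, the smallest of 70 labellings, 0.0429 adjusted over 6 tests), with no such difference detected in macrophage-like cells (p = 0.629 by the same exact test). The 6 tests held overlapping selections of the same epithelial cells, some made by their class II UMIs. The adjusted value therefore counts 1 result more than once and is not a correction over separate tests. Neither the ratio nor its tests were part of the design set beforehand, in which differences between classes were only described. Their p-values are therefore those of a measure picked outside that design. Over the 5 epithelial clusters, H2-Ab1 ran from 20.6 CPM in that led by Krt13 and Krt4, markers of differentiated cells, to 48.5 CPM in one led by Krt24, and the second was above the first in 6 of 6 libraries with at least 20 cells of both. The pair was picked as the lowest and highest cluster of the same cells, so that count is a description and no separate support. A further cluster led by Wfdc18 and Ltf was not named epithelial but had 260 cells in the keratin gate. Its H2-Ab1 was higher, at 63.5 CPM, with Cd74 at 87.8 CPM. At 2000 UMIs per cell, 3.90% to 8.77% of epithelial and 1.92% to 12.98% of T-cell-like cells held an H2-Ab1 UMI.

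**Figure D5:**
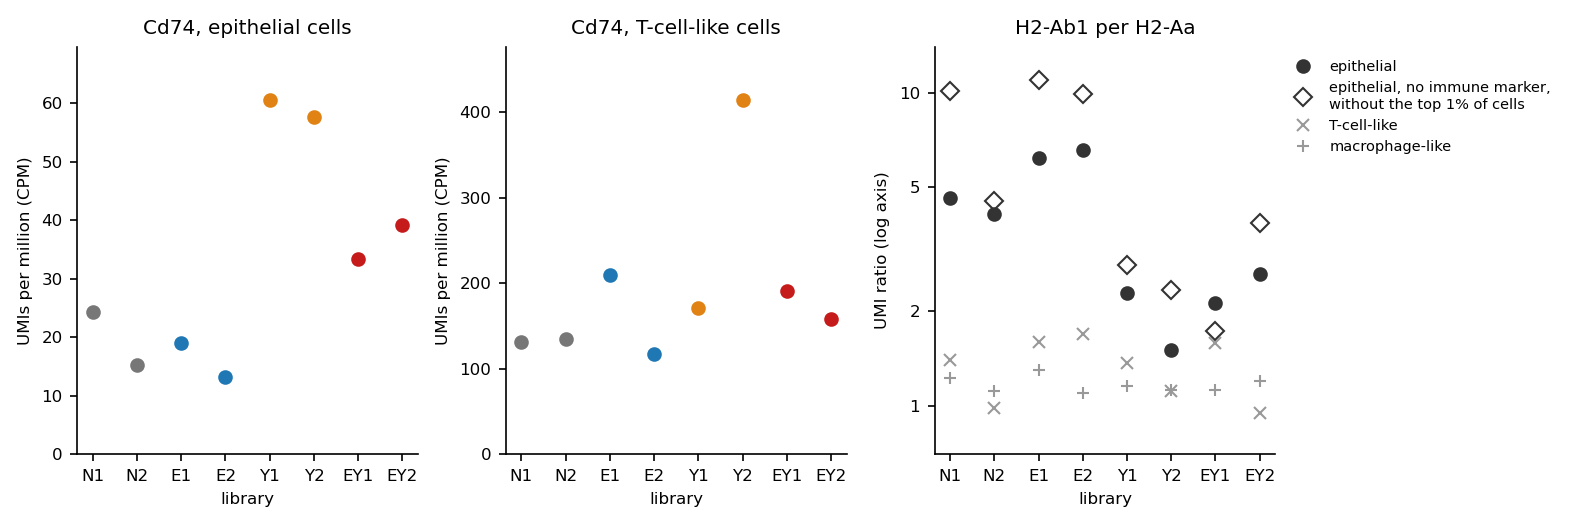
Left and middle, Cd74 (CPM) in epithelial and T-cell-like cells of each library, coloured by group. Right, H2-Ab1 UMIs per H2-Aa UMI (log axis), where epithelial cells lie above macrophage-like cells in all 8 libraries and the Y and EY libraries lie below N and E.

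Among 38 other genes of the class II pathway, few passed the test in antigen-presenting cells. This list (other class II molecules, processing enzymes, transcription factors, the interferon-gamma route to Ciita, and surface turnover with co-stimulation) was read from the same fits. In macrophage-like cells, 36 were tested. For the YAP effect the co-stimulatory ligand Cd80 rose (log2 fold change 1.11, edgeR adjusted p = 0.0261) and Cd83, which keeps class II at the surface, fell (-1.11, edgeR adjusted p = 0.0446), beside 2.63% of all genes called. Cd83 was at 445 and 372 CPM in N, 353 and 330 in E, 163 and 322 in Y, and 97.9 and 115 in EY. For EY against N, Cd83 fell (-1.80, edgeR adjusted p = 0.0310) with Tmem176b (-2.69, edgeR adjusted p = 0.0473), and March1, the ligase that removes class II from the surface, rose (1.17, edgeR adjusted p = 0.0387), beside 1.59% of all genes called. March1 was at 70.7 and 83.7 CPM in N, 64.6 and 77.1 in E, 107 and 82.2 in Y, and 170 and 145 in EY. The 2 EY libraries thus lay below all others for Cd83 and above all others for March1, genes named because they were called. Both EY libraries were below all others for 16.7% of all genes in these cells, so that is a common pattern there. The share of genes with both EY libraries above all others was not counted. The YAP calls were lost in 6 (Cd80) and 7 (Cd83) of 15 alternatives, with adjusted p up to 0.0929 and 0.166. The 3 calls for EY against N were lost in 6 of 15 alternatives each, with adjusted p up to 0.216 for Cd83, 0.219 for March1 and 0.236 for Tmem176b.

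Cd80 also rose with YAP in Langerhans-like cells (1.34, edgeR adjusted p = 0.0241), where 32 of the list were tested, and so did Irf8, a factor of dendritic and Langerhans cell identity (0.86, edgeR adjusted p = 0.0405), while Cd9, a tetraspanin, fell (-1.31, edgeR adjusted p = 0.0279), beside 6.32% of all genes called. Each of these calls was lost in 8 of 15 alternatives, with adjusted p up to 0.138 for Cd80, 0.184 for Irf8 and 0.125 for Cd9. In Langerhans-like and dendritic-like cells summed, 2 of 33 rose with YAP (Socs1, 1.14, edgeR adjusted p = 0.0481, and Cd80, 1.04, edgeR adjusted p = 0.0471), beside 3.35% of all genes called. Both calls were lost in 10 of 16 alternatives, with adjusted p up to 0.186 for Socs1 and 0.156 for Cd80. Socs1, which damps interferon signalling, was at 14.7 and 13.3 CPM in N, 43.9 and 34.1 in E, 50.99 and 29.6 in Y, and 62.5 and 52.2 in EY, so each of the other groups lay above N. For EY against N it rose by 2.13 on the log2 scale (SE 0.40, edgeR adjusted p = 0.0230), a call lost in 4 of 16 alternatives (adjusted p up to 0.271).

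In epithelial cells 7 of 31 list genes rose with YAP, beside 5.26% of all genes. Spi1, a factor of myeloid cells, had the largest estimate (2.47, edgeR adjusted p = 0.00853) at 1.03 to 1.94 CPM without and 3.16 to 10.1 CPM with YAP. Ifngr1, a chain of the interferon-gamma receptor, was at 25.3 and 21.5 CPM in N, 26.7 and 22.9 in E, 45.0 and 53.5 in Y, and 40.7 and 44.9 in EY (0.97, edgeR adjusted p = 0.00430), so the groups with and without YAP did not overlap. All YAP libraries stood above all others for 8.12% of all genes in these cells, and Spi1 and Ifngr1 were named because they were called. The lysosomal genes Lgmn (0.68, edgeR adjusted p = 0.0164) and Cd63 (0.66, edgeR adjusted p = 0.0338) and the endosomal Tmem176a (1.09, edgeR adjusted p = 0.0343) and Tmem176b (0.99, edgeR adjusted p = 0.0141) also rose. Of 16 alternatives, 7 ended the calls of Tmem176a and Cd63 (adjusted p up to 0.111 and 0.252), 4 that of Lgmn (up to 0.181) and 1 each those of Spi1, Ifngr1 and Tmem176b.

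The genes most like the members in pattern were found over 50 sums of a class in a library (9 classes), by the Pearson correlation of log2(CPM + 1) with the mean standardised level of the 6 members, among 8270 genes at 20 CPM or more in a class. The sums share libraries and depth, so this is a description. H2-DMb2 came first (0.96), followed by Amz1 (0.95), Plekho1 (0.94), Grk3 (0.92), Aif1 (0.92), Pkib (0.92), Prcp (0.92), Nostrin (0.91), Cd40 (0.91) and Gm36486 (0.91), and Ciita had 0.93. Aif1, a macrophage gene, was at 716 CPM in macrophage-like and 257 CPM in Langerhans-like cells, while H2-DMb2 was at 125 and 322 CPM. With Spearman's correlation 4 of the 10 stayed in the list (H2-DMb2, Amz1, Plekho1 and Prcp).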

How the data were processed

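Processed files were 10x count matrices, 1 per library. The deposited counts are UMIs per gene and cell, which the authors made with Cell Ranger against mm10. The labels name the v2 kit and the methods v3.1. The labels give N2 a pair of animal numbers, so it may pool 2 animals. Kept cells had 1000 to 5500 genes, 30000 UMIs or fewer and a mitochondrial share up to 7%. Immune cells were clustered with Leiden (scanpy 1.11.5; 3000 variable genes, 30 components, 50 neighbours, resolution 0.3, then 1.0 for the Langerhans and dendritic cluster). The list of members, the pathway list and the markers were chosen with earlier results of these data known. UMI counts were summed per class and library (at least 20 cells, or 10 for Langerhans-like and dendritic-like cells apart, a limit set after cells were counted) and tested over all genes with edgeR 4.0.16 (quasi-likelihood, filterByExpr, TMM, Benjamini-Hochberg, threshold 0.05), in an additive model for the YAP and E6-E7 effects and with group means for EY against N and the interaction; DESeq2 1.42.0 was an alternative. Levels are CPM of all UMIs of the class; thinning drew 2000 UMIs per cell. Shares and levels carry counting error besides the spread between libraries. No doublet caller was applied in the main analysis. Tested on simulated data with 200 changed genes, the YAP contrast called 46.3% of genes with a log2 change of 1 and 89.8% of those with 2 in macrophage-like cells (9511 genes), 36.5% and 92.4% in Langerhans-like cells (4160 genes), and 40.6% and 84.8% in epithelial cells (13264 genes). Named genes were all members, pathway genes past the threshold (at most 6 per class and contrast, by size), and the 10 nearest genes; sub-clusters and neighbours of H2-Eb1 were chosen after their values were seen. Promoter sequences came from RefSeq and coordinates from GENCODE vM21.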

Additional observations from a re-analysis of the deposited data

Results flagged for a closer look

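The YAP effect of 2 members had opposite signs in cell classes of the same libraries. For Cd74 the mean log2 difference between the 4 libraries with and the 4 without the YAP transgene was 1.41 in epithelial cells and -0.48 in Langerhans-like and dendritic-like cells summed, a difference of 1.88. For H2-Ab1 it was 1.90 in T-cell-like cells and -0.38 in Langerhans-like and dendritic-like cells, a difference of 2.28. These pairs of classes were picked for their opposite signs, so the differences were not tested. The levels on the positive side were far below those on the negative side, at 13.1 to 60.6 CPM of Cd74 in epithelial cells and 7.04 to 83.6 CPM of H2-Ab1 in T-cell-like cells. Without the 1% of epithelial cells with the most class II UMIs, Cd74 in Y2 (13.2 CPM) lay below N2 (13.4 CPM). With 2 libraries per group, a single library far from its group could not be tested for. The split of H2-Eb1 between the 2 libraries of E and of Y is given as values only.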

How the results depend on the processing

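With 2 libraries per group and 15 to 56 Langerhans-like cells in each, changes of 2-fold or less can often be missed. In the simulation for these cells, 36.5% of genes with a log2 change of 1 were called. No paired analysis was possible because the labels give animal numbers and no replicate number that groups share. Without a filter on low counts, the number of members called became 1 for the E6-E7 effect, 2 for EY against N and 1 for the interaction in macrophage-like cells, 1 for the YAP effect in dendritic-like cells, 1 for EY against N and 1 for the interaction in Langerhans-like cells, 2, 1 and 1 for the YAP effect, EY against N and the interaction in Langerhans-like and dendritic-like cells summed, and 5, 3 and 1 for the YAP effect, the E6-E7 effect and EY against N in T-cell-like cells. DESeq2 called 1 member for the YAP effect in the summed cells and 2 in T-cell-like cells. For the YAP effect in Langerhans-like cells the count fell to 0 with no upper limit on genes or UMIs and at resolution 1.0, and for EY against N it rose to 1 at 200 or more genes per cell and without E2 and Y2. In epithelial cells the YAP count fell to 1 at 200 or more genes and without immune-marker cells and to 0 without E2 and Y2, and the EY against N count fell to 0 without immune-marker cells and without E2 and Y2. In T-cell-like cells the YAP count was 2 at 200 or more genes, and 1 with no upper limit, with class II genes in the clustering, at resolution 1.0 and without E2 and Y2. With 1 library left out the counts ran from 1 to 2 (YAP) and 0 to 1 (EY against N) in epithelial cells, 0 to 2 (YAP) in T-cell-like cells, and 0 to 1 for the interaction in dendritic-like and in Langerhans-like cells; the cause was not tested. The YAP effect on H2-Eb1 in the summed cells ran from -0.84 to 0.38 and turned positive without E1 and without Y2. That on H2-Ab1 in epithelial cells turned from -0.18 to 0.043 at 200 or more genes and 0.0023 without E2 and Y2, and ranged from -0.42 to 0.058 with 1 library left out (positive without EY2). At 200 or more genes no macrophage cluster could be named, keratins at 5% or more left too few cells, and Scrublet called 125 of 25199 cells (0.496%), so these gave no value. The alternatives without E2 and Y2, with finer macrophage clusters and of the H2-Ab1 ratio were chosen after seeing the data.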
